A study of Mus musculus with 6 samples.

Results

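Transcripts of 45 genes that fold, move, degrade and report on proteins in the endoplasmic reticulum (ER) were followed across 6 mouse RNA-seq libraries. The genes were chosen by name for their role: 11 chaperones and co-chaperones, 8 disulfide oxidoreductases, 7 genes of the translocon and its associated TRAP complex, 9 genes of ER-associated degradation (ERAD), 7 stress sensors and transcription factors, and 3 targets of the factor ATF4. All 45 had a row among the 23845 genes of the deposited table, and all 45 passed the filter on low counts. The libraries formed 3 groups of 2, all labelled as intestinal epithelial cells. EYFP cells came from mice labelled Neurog3+/+EYFP, on a mixed background of C57BL6 and CD1. EGFP cells came from mice labelled Neurog3+/-EGFP, on C57BL6. Wild-type (WT) cells came from C57BL6 mice with no reporter in their label. The WT libraries are titled Duod, read here as duodenum, while the EYFP and EGFP titles name no part of the gut. The titles thus do not show whether all 3 groups came from the same part, and a difference of region was not tested. By these labels, genotype, reporter and strain background cannot be told apart where EYFP cells are compared with another group. Between EGFP and WT cells, genotype and reporter cannot be told apart. Neurog3 is the transcription factor that starts the enteroendocrine (hormone-secreting) fate in the gut, and the series set side by side reporter mice with different numbers of Neurog3 alleles. Its design text states that Neurog3-expressing cells were sorted by flow cytometry. The sources used here do not give the gates, the age or sex of the mice, or whether wild-type cells were sorted. In comparisons with WT cells, the sorting of Neurog3-expressing cells cannot be told apart from genotype and reporter. Nothing states whether the 2 libraries of a group came from separate mice. The 2 WT libraries differed in sex-linked transcripts, given below, and so came from different mice. The p-values measure the spread between these libraries. That spread may be technical in EYFP and EGFP cells, and in WT cells it includes a difference of sex.

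Proteins bound for secretion enter the ER through the Sec61 channel, are folded by chaperones such as BiP (the product of Hspa5), receive disulfide bonds from the protein disulfide isomerase family, and are sent to the proteasome by ERAD when they stay misfolded. Unfolded protein is sensed by IRE1, PERK and ATF6, which act through XBP1, ATF4 and a cleaved form of ATF6 itself on the genes of this machinery. In the gut, mucus-secreting goblet cells, antimicrobial Paneth cells and enteroendocrine cells are the secretory types, and the second form of IRE1, encoded by Ern2, is known from mucus-producing epithelium.

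The promoters of ER chaperones are known for the ER stress response element, or ERSE, made of CCAAT, 9 bases of any kind and CCACG, to which ATF6 and XBP1 can bind. RefSeq promoter windows (GRCm38.p6, 250 bases before to 50 after each start) were found for 38 of the 45 genes and searched on both strands. Of these 38 genes, 9 (23.7%) held at least 1 ERSE, against 37 of all 27025 genes with a window (0.137%). The 9 were the chaperone genes Hspa5, Hsp90b1, Calr, Canx, Dnajc3 and Creld2, the oxidoreductase gene Pdia6, and the ERAD genes Syvn1 and Derl3. By role, that was 6 of 9 chaperone genes with a window, 1 of 8 oxidoreductase genes, 2 of 8 ERAD genes, and 0 of 5 translocon and TRAP genes, 0 of 5 sensors and factors and 0 of 3 ATF4 targets. A match describes letters in a window and is not a measured binding site. The stretches below are shown because they hold the element that these genes share. Each is read 5′ to 3′ on the gene's own strand, and capitals mark CCAAT and CCACG, or ATTGG and CGTGG where the element lies on the opposite strand.
Hspa5, chr2:34772010-34772058, plus strand: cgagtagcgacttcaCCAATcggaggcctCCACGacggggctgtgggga
Hsp90b1, chr10:86705518-86705671, minus strand: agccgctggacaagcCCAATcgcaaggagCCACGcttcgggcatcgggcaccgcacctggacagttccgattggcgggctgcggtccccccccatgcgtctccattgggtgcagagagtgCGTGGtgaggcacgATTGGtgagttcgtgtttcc
Calr, chr8:84847060-84847108, minus strand: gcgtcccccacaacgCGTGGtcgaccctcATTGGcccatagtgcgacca
Canx, chr11:50325785-50325833, minus strand: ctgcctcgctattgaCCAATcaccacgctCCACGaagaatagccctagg
Dnajc3, chr14:118937812-118937860, plus strand: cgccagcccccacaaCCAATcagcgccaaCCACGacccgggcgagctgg
Creld2, chr15:88819505-88819553, plus strand: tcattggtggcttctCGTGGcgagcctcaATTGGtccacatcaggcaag
Pdia6, chr12:17266476-17266524, plus strand: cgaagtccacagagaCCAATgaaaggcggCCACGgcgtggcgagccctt
Syvn1, chr19:6046517-6046565, plus strand: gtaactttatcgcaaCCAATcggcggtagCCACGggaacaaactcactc
Derl3, chr10:75893227-75893275, plus strand: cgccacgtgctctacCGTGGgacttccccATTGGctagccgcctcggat

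Hsp90b1 held 2 elements, one on each strand, and the other 8 genes held 1 each. The CCACG end alone was found in 28 of the 38 genes (73.7%) and in 35.5% of all genes with a window. The unfolded protein response element TGACGTGG, whose opposite strand also holds CCACG, was found for 1 of the 38, Txndc5, and for 0.714% of all genes. An ATF4 element, searched only as TGATGNAAT, was found in 0 of the 38 genes and in 1.08% of all genes. This exact string is thus not in the windows of Trib3, Asns or Chac1. Other forms of the element were not searched, so their absence is not shown.

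**Figure D1:**
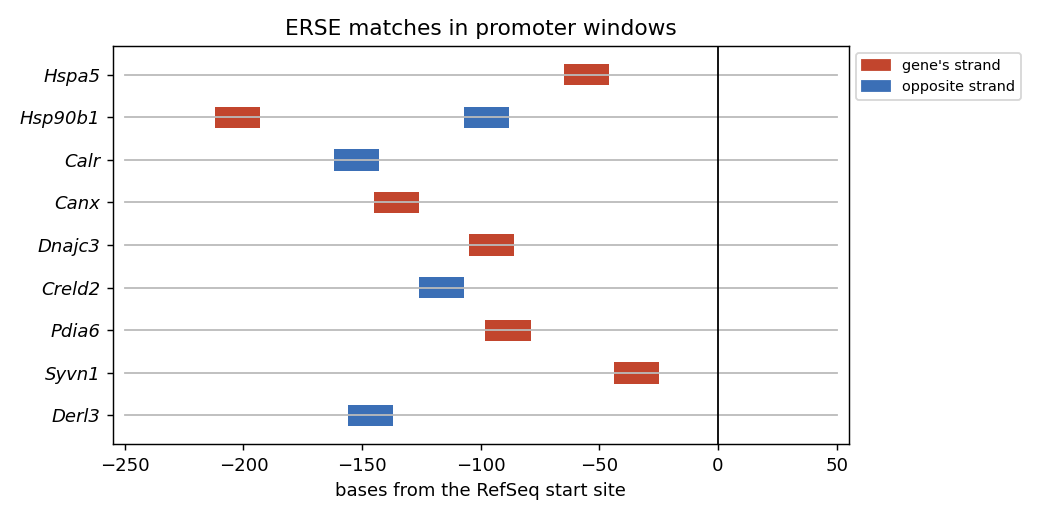
Positions of the ERSE matches in the RefSeq promoter windows of the 9 genes that hold one, in bases from the start site (x axis, from 250 before to 50 after the start). Each bar spans the 19 bases of 1 match on the gene's strand or the opposite one. The first base of the match lies between 212 bases (Hsp90b1) and 44 bases (Syvn1) before the start.

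The libraries held 7938358 to 20589683 estimated counts, and levels are given as CPM, the count scaled to a common library total with TMM factors. Neurog3 stood at 563 and 348 CPM in EYFP cells, 120 and 179 CPM in EGFP cells, and 6.0 and 6.39 CPM in WT cells (log2 fold change 1.61 in EYFP over EGFP, with an edgeR adjusted p of 0.0049). Cell type markers differed between the groups as well. Summed over 7 goblet markers, the level was 635 and 1592 CPM in EYFP cells, 60345.5 and 99962.5 CPM in EGFP cells, and 5442 and 7265 CPM in WT cells. The 7 Paneth markers summed to 734 and 399 CPM in EYFP cells, 14355 and 18392 CPM in EGFP cells, and 13554 and 21742 CPM in WT cells. The 6 enteroendocrine markers summed to 59605 and 45005 CPM in EYFP cells, 8854 and 13414 CPM in EGFP cells, and 504 and 572 CPM in WT cells. The 7 enterocyte markers summed to 1308 and 1959 CPM in EYFP cells, 1495 and 1910 CPM in EGFP cells, and 23142 and 36584 CPM in WT cells. In EYFP over EGFP, 7 of 7 goblet, 7 of 7 Paneth, 6 of 6 cycling-cell and 5 of 5 tested tuft markers were lower and 5 of 6 enteroendocrine markers higher. In EGFP over WT, 6 of 7 goblet and 6 of 6 enteroendocrine markers were higher and 7 of 7 enterocyte markers lower. None of the goblet, Paneth, enteroendocrine or enterocyte markers was at 0 in any library. Plasma cells, another secretory type, left little trace: 5 of their markers summed to between 20.0 and 124 CPM, and Tnfrsf17 was at 0 in all 6 libraries. In these bulk samples, fewer cells of a type and less RNA per cell cannot be told apart.

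The ER genes were highest in EGFP cells. Their 45 levels summed to 12536 and 11454 CPM in EYFP cells, 21265 and 18249 CPM in EGFP cells, and 13497 and 12084 CPM in WT cells. In EYFP over EGFP, 27 of the 45 fell and 1, Atf6, rose, where 19.4% of all 13935 genes tested fell and 16.8% rose. Their median log2 fold change was -0.82, against 0.0084 over all genes tested. In EGFP over WT, 30 rose and 3 (P4hb, Derl1 and Trib3) fell, where 19.6% of all genes rose and 21.9% fell, and the members' median was 0.76. In EYFP over WT, 9 rose and 5 fell, where 27.1% of all genes rose and 33.5% fell. The members' median there was 0.08, against -0.12 over all genes. It was -0.07 (all genes -0.15) without EYFP replicate 1 and -0.09 (all genes -0.07) without WT replicate 2. These comparisons share groups, so a gene high in EGFP cells counts in both of the first 2. Of the 45 genes, 15 were lower in EYFP over EGFP, higher in EGFP over WT and without a call in EYFP over WT, and 9 passed in no comparison (Hspa5, Canx, Dnajb9, Herpud1, Sel1l, Derl2, Ern1, Atf4 and Ddit3). The counts rested in part on single libraries. Without EGFP replicate 1, 10 members fell in EYFP over EGFP, where 8.67% of all genes did, and without EYFP replicate 2, 13 fell, where 11% did. Without EGFP replicate 1, 18 rose in EGFP over WT, where 15.5% of all genes did, and without WT replicate 2, 18 rose, where 14.9% did. The summed goblet markers were also highest in EGFP cells, and the part of these cells in the members' levels was not tested.

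**Figure D2:**
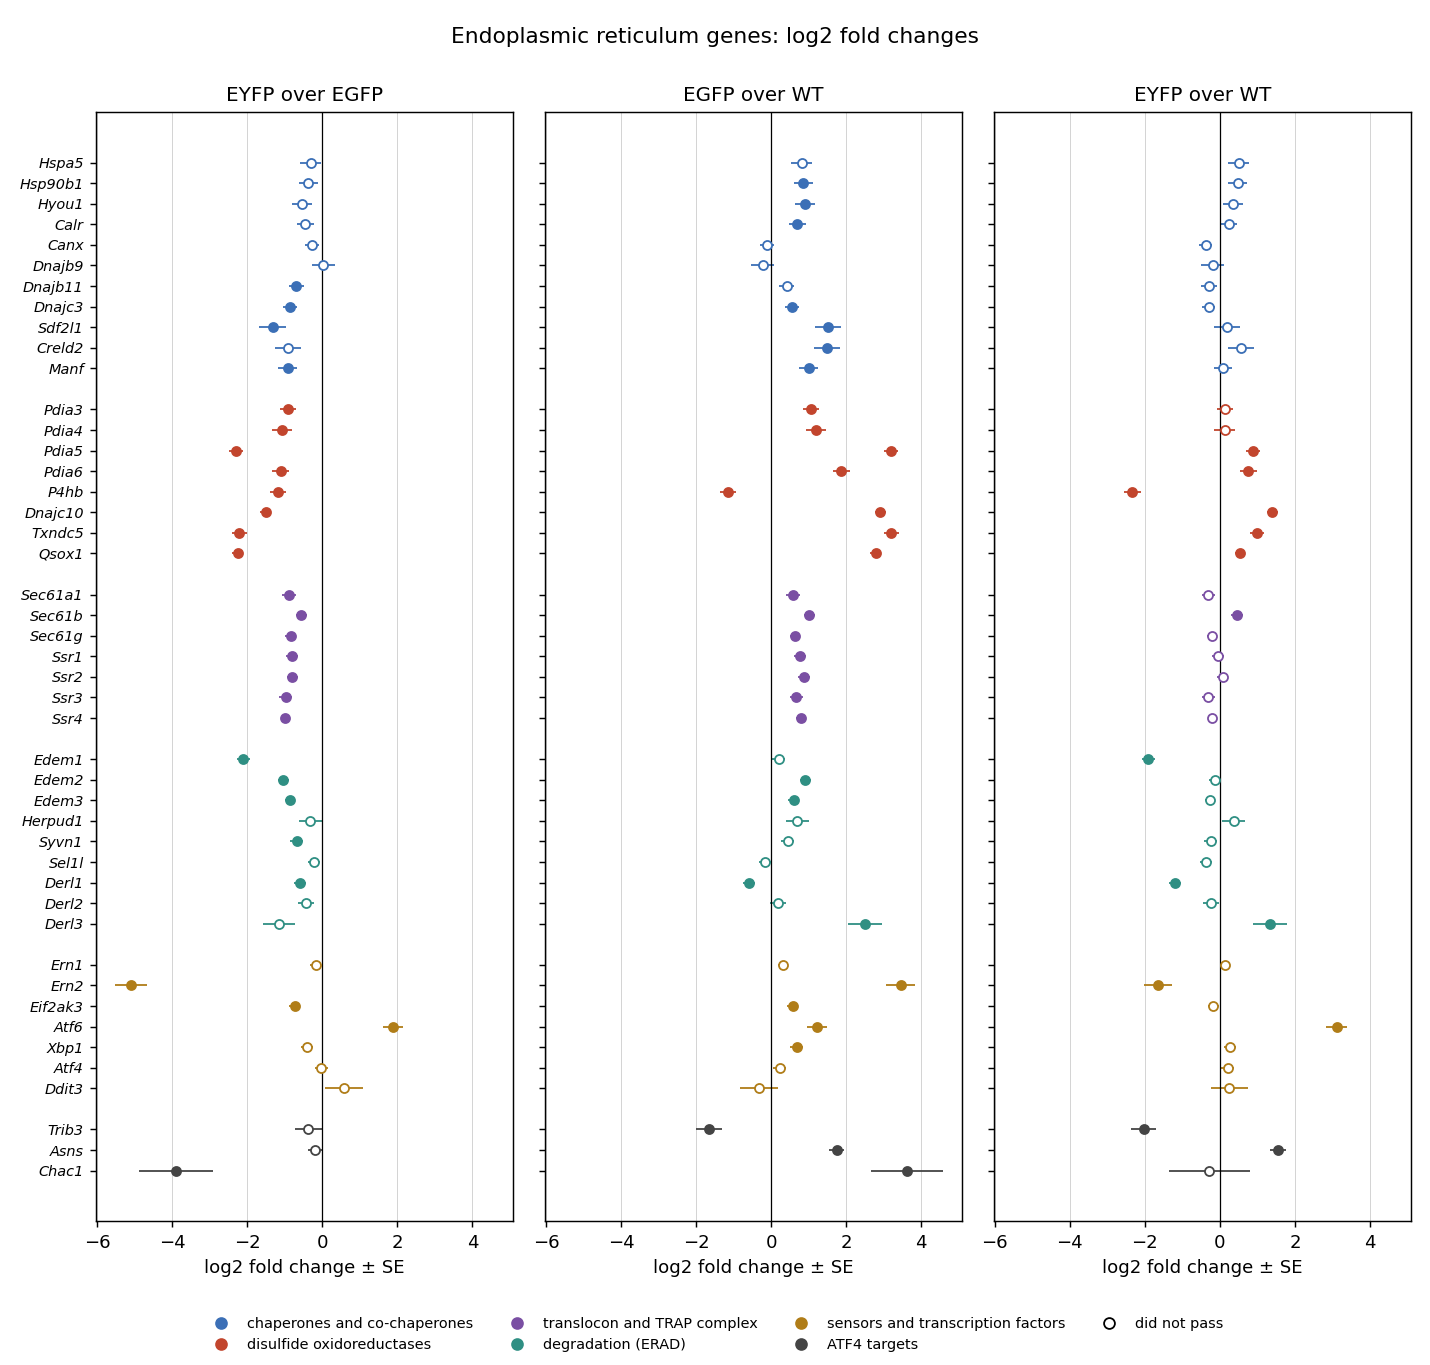
Log2 fold changes of the 45 genes (points) with their standard error (bars) in EYFP over EGFP, EGFP over WT and EYFP over WT, grouped by role and on 1 shared x axis. Filled points passed edgeR's quasi-likelihood test at an adjusted p of 0.05 over all genes tested. Oxidoreductase, translocon and TRAP genes lie left of 0 in EYFP over EGFP without exception, Ern2 reaches -5.10 and Atf6, at 1.89, is the only filled point right of 0 there.

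Among the chaperones, 7 of 11 passed as higher in EGFP cells against WT cells, and 4 of 11 as lower in EYFP cells against EGFP cells. The 4 that fell in EYFP over EGFP were Dnajb11, Dnajc3, Sdf2l1 and Manf, none rose, and the median was -0.54. None fell in EGFP over WT, where the median was 0.81. None of the 11 passed in EYFP over WT. Hspa5 encodes BiP, the main Hsp70 chaperone of the ER. It stood at 1812 and 1877 CPM in EYFP cells, 2762 and 1800.4 CPM in EGFP cells, and 1508 and 1090.5 CPM in WT cells. The EGFP libraries lay apart from each other, 1 of them above all others and 1 just below the EYFP libraries, and both WT libraries were the lowest. Hspa5 passed in no comparison, with a log2 fold change of -0.31 ± 0.28 in EYFP over EGFP (edgeR adjusted p = 0.43) of 0.81 ± 0.28 in EGFP over WT (adjusted p = 0.052) and of 0.51 ± 0.28 in EYFP over WT (adjusted p = 0.16). The EGFP over WT difference lay at the threshold and did pass with DESeq2 size factors (adjusted p = 0.047), without the filter (0.024), with a minimum of 10 counts (0.049), with the replicate block (0.025), with the DESeq2 Wald test (0.0040) and without WT replicate 1 (0.029). The DESeq2 Wald test also called EYFP over WT, at an adjusted p of 0.034. In the authors' deposited table, whose fold here is WT over EGFP, Hspa5 had a fold of 0.561 with an adjusted p of 0.00998.

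Sdf2l1 encodes a partner of the co-chaperone ERdj3. Its level was 67.1 and 35.2 CPM in EYFP cells, 153 and 104 CPM in EGFP cells, and 51.9 and 38.1 CPM in WT cells. Both EGFP libraries were above the other 4, and the EYFP and WT libraries overlapped. It fell in EYFP over EGFP (log2 fold change -1.32 ± 0.35, adjusted p = 0.030) and rose in EGFP over WT (1.51 ± 0.36, adjusted p = 0.016). Manf, a BiP-binding protein that stressed cells can release, had the same order. It stood at 207 and 142 CPM in EYFP cells, 387 and 276 CPM in EGFP cells, and 185 and 145 CPM in WT cells, a log2 fold change of -0.92 ± 0.25 in EYFP over EGFP (adjusted p = 0.025) and of 1.01 ± 0.25 in EGFP over WT (adjusted p = 0.015). The J-domain co-chaperones Dnajb11 (ERdj3) and Dnajc3 (p58IPK) had log2 fold changes of -0.70 ± 0.20 and -0.85 ± 0.19 in EYFP over EGFP, and in EGFP over WT Dnajc3 rose (0.55 ± 0.19) while Dnajb11 (0.41 ± 0.20) did not pass. Hsp90b1 (GRP94), Hyou1 (a nucleotide exchange factor for BiP), the lectin chaperone Calr and Creld2 (a stress-inducible ER protein) rose in EGFP over WT, with log2 fold changes between 0.70 and 1.48. In EYFP over EGFP they did not pass, with values between -0.91 and -0.37. Canx, the membrane-bound lectin chaperone, and Dnajb9 (ERdj4) passed in no comparison, and their log2 fold changes lay between -0.38 and 0.02. The chaperone calls rested on single libraries. Without EGFP replicate 1, 0 of 11 passed in either comparison, with medians of -0.31 in EYFP over EGFP and 0.69 in EGFP over WT, 0 passed in EYFP over EGFP without EYFP replicate 2, 0 passed in EGFP over WT without WT replicate 2, and 4 rose in EGFP over WT without either EYFP replicate in turn.

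The disulfide oxidoreductases passed in every member in EYFP over EGFP and in EGFP over WT. All 8 fell in EYFP over EGFP, with a median log2 fold change of -1.35, the most negative of the 6 roles. Against WT cells, 7 rose in EGFP cells and 1, P4hb, fell, with a median of 2.33. EYFP over WT had 5 that rose (Pdia5, Pdia6, Dnajc10, Txndc5 and Qsox1), 1 that fell (P4hb) and 2 that did not pass (Pdia3 and Pdia4). Summed, the 8 stood at 2826 and 2573 CPM in EYFP cells, 7214 and 7075 CPM in EGFP cells, and 4820 and 4916 CPM in WT cells. P4hb alone made up 3222 and 3632 CPM of the WT sums, against 678 and 682 CPM in EYFP cells. The sums therefore do not give the order of EYFP and WT cells for the other members. Without EGFP replicate 1, 4 of the 8 fell in EYFP over EGFP, and 5 without EYFP replicate 2. Pdia5, Dnajc10, Txndc5 and Qsox1 passed under every alternative tried in both of the first 2 comparisons.

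Pdia5 encodes a member of the protein disulfide isomerase family and lies on chromosome 16. It stood at 44.8 and 37.1 CPM in EYFP cells, 208 and 198 CPM in EGFP cells, and 25.6 and 19.1 CPM in WT cells. The 3 groups did not overlap, and the replicates lay close to each other beside the distance between groups. Pdia5 was 4.95-fold lower in EYFP over EGFP (log2 fold change -2.31 ± 0.18, adjusted p = 2.5e-04) and 9.11-fold higher in EGFP over WT (3.19 ± 0.19). Qsox1, a sulfhydryl oxidase that makes disulfide bonds along the secretory route, stood at 93.3 and 99.8 CPM in EYFP cells, 463 and 457 CPM in EGFP cells, and 62.5 and 70.3 CPM in WT cells. Again the EGFP libraries were the highest and the WT libraries the lowest, with a log2 fold change of -2.25 ± 0.14 in EYFP over EGFP (adjusted p = 1.8e-04) and of 2.79 ± 0.15 in EGFP over WT. Txndc5, a thioredoxin-domain isomerase, had 414 and 386 CPM in EYFP cells, 1718 and 1993 CPM in EGFP cells, and 207 and 196 CPM in WT cells. It was 4.64-fold lower in EYFP over EGFP (-2.21 ± 0.19), 9.21-fold higher in EGFP over WT (3.20 ± 0.20) and 1.99-fold higher in EYFP over WT (0.99 ± 0.19). Exons of Txndc5 overlap those of Bmp6 on the other strand by 224 bases, and Bmp6 itself had no more than 3.52 CPM in any library. They also overlap Gm31834 on the other strand by 311 bases. Gm31834 had no row among the deposited counts, so its level is not known here. Dnajc10, the disulfide reductase ERdj5, had log2 fold changes of -1.52 ± 0.14 in EYFP over EGFP and 2.92 ± 0.15 in EGFP over WT. Pdia6 followed with -1.11 ± 0.22 and 1.87 ± 0.23, Pdia4 with -1.07 ± 0.27 and 1.20 ± 0.27, and Pdia3, which works with calnexin and calreticulin, with -0.92 ± 0.21 and 1.06 ± 0.21.

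P4hb departed from this order. It encodes protein disulfide isomerase itself, which is also a subunit of collagen prolyl 4-hydroxylase and of the microsomal triglyceride transfer protein that loads lipoproteins in enterocytes. It stood at 678 and 682 CPM in EYFP cells, 1568 and 1519 CPM in EGFP cells, and 3222 and 3632 CPM in WT cells. The groups did not overlap, and WT cells, not EGFP cells, were the highest. P4hb was 2.27-fold lower in EYFP over EGFP (log2 fold change -1.18 ± 0.21, adjusted p = 0.0047), 2.22-fold lower in EGFP over WT (-1.15 ± 0.21, adjusted p = 0.0035) and 5.04-fold lower in EYFP over WT (-2.33 ± 0.22, adjusted p = 7.1e-05). Enterocyte markers were also highest in WT cells, and their part in the P4hb level was not tested. The first 2 differences had adjusted p of 0.056 and 0.055 without EGFP replicate 1.

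The translocon and TRAP genes moved together and by similar amounts. All 7 fell in EYFP over EGFP, with log2 fold changes from -0.99 to -0.56 and a median of -0.85. All 7 rose in EGFP over WT, with values from 0.58 to 1.02 and a median of 0.76. Sec61b alone passed in EYFP over WT, and it did not pass there without EYFP replicate 1, WT replicate 1 or WT replicate 2. Ssr4 encodes the δ subunit of the TRAP complex, which assists the Sec61 channel. Its level was 92.0 and 93.0 CPM in EYFP cells, 188 and 180 CPM in EGFP cells, and 106 and 107 CPM in WT cells. The replicates were nearly equal in every group and the EGFP libraries were the highest (-0.99 ± 0.12 in EYFP over EGFP, adjusted p = 0.0012, and 0.79 ± 0.12 in EGFP over WT, adjusted p = 0.0017). Ssr4 lies on chromosome X, and the libraries differed in sex-linked transcripts. Xist, expressed from the inactive X of females, stood at 0.634 and 2.36 CPM in EYFP cells, 966 and 969 CPM in EGFP cells, and 1.17 and 726 CPM in WT cells. Ddx3y, also sex-linked, stood at 37.3 and 39.3 CPM in EYFP cells, 0 and 0 CPM in EGFP cells, and 62.4 and 0.121 CPM in WT cells. Between EYFP and EGFP cells, sex, genotype and strain background cannot be told apart for any member. Comparisons with WT cells are unbalanced in sex, since WT replicate 1 had the high Ddx3y and WT replicate 2 the high Xist. The part of sex in the Ssr4 level, or in that of any other member, was not tested.

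Ssr3, the γ subunit, stood at 247 and 211 CPM in EYFP cells, 494 and 406 CPM in EGFP cells, and 299 and 269 CPM in WT cells. Both EGFP libraries exceeded the other 4 (-0.97 ± 0.17 in EYFP over EGFP and 0.66 ± 0.17 in EGFP over WT). Sec61b, the β subunit of the channel, stood at 125 and 101 CPM in EYFP cells, 176 and 158 CPM in EGFP cells, and 81.9 and 83.2 CPM in WT cells. Its EYFP libraries lay between the EGFP and the WT libraries. The log2 fold changes were -0.56 ± 0.15, 1.02 ± 0.15 and 0.46 ± 0.15 in EYFP over EGFP, EGFP over WT and EYFP over WT. Sec61a1, which forms the pore, Sec61g, Ssr1 and Ssr2 had log2 fold changes from -0.89 to -0.80 in EYFP over EGFP and from 0.58 to 0.88 in EGFP over WT. Without EGFP replicate 1, 2 of the 7 fell in EYFP over EGFP, with a median of -0.69, and 3 without EYFP replicate 2.

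ERAD genes were split. Of the 9, 5 fell in EYFP over EGFP (Edem1, Edem2, Edem3, Syvn1 and Derl1), with a median of -0.69, and 3 of these did so without EGFP replicate 1 or without EYFP replicate 2. Against WT cells, EGFP cells had 3 that rose (Edem2, Edem3 and Derl3) and 1 that fell (Derl1). There, 19.6% of all genes tested rose and 21.9% fell. EYFP cells against WT cells had 1 that rose (Derl3) and 2 that fell (Edem1 and Derl1). These are smaller shares than the 27.1% of all genes that rose and the 33.5% that fell there. Edem1 encodes a mannosidase-like lectin that marks misfolded glycoproteins for removal. It stood at 45.1 and 43.6 CPM in EYFP cells, 219 and 163 CPM in EGFP cells, and 154 and 178 CPM in WT cells. The EYFP libraries were well below the rest, and the EGFP and WT libraries overlapped. Edem1 was 4.31-fold lower in EYFP over EGFP (-2.11 ± 0.18, adjusted p = 3.2e-04) and 3.75-fold lower in EYFP over WT (-1.91 ± 0.18, adjusted p = 6.9e-05), with 0.20 ± 0.17 in EGFP over WT (adjusted p = 0.39). Its relative Edem2 stood at 73.9 and 60.8 CPM in EYFP cells, 132 and 145 CPM in EGFP cells, and 71.5 and 76.3 CPM in WT cells. Here the EYFP and WT libraries overlapped below the EGFP libraries (-1.04 ± 0.15 in EYFP over EGFP and 0.90 ± 0.15 in EGFP over WT). Edem3 had -0.87 ± 0.14 and 0.60 ± 0.14 in the same comparisons.

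The derlins, membrane proteins of the exit channel, differed from each other. Derl3 was scarce, at 1.97 and 1.43 CPM in EYFP cells, 4.10 and 3.55 CPM in EGFP cells, and 0.750 and 0.603 CPM in WT cells. Its order was the common one, with 2.49 ± 0.45 in EGFP over WT (adjusted p = 0.0034) and -1.15 ± 0.42 in EYFP over EGFP (adjusted p = 0.063). In EYFP over WT it was 1.34 ± 0.46, a call lost when any library but EGFP replicate 1 was left out. Derl1 had the order of P4hb, with -0.60 ± 0.16, -0.58 ± 0.16 and -1.19 ± 0.16 in EYFP over EGFP, EGFP over WT and EYFP over WT, of which the second did not pass without any 1 of the EGFP or WT libraries. Derl2 did not pass in any comparison, with values from -0.43 to 0.18. The ubiquitin ligase gene Syvn1 (HRD1) had -0.69 ± 0.18 in EYFP over EGFP. Its adaptor gene Sel1l and the scaffold gene Herpud1 passed in no comparison, with Sel1l between -0.37 and -0.16 and Herpud1 between -0.32 and 0.69.

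The sensors and transcription factors held both extremes. Ern2 and Eif2ak3 fell in EYFP over EGFP, Atf6 rose, and Ern1, Xbp1, Atf4 and Ddit3 did not pass. EGFP over WT had 4 that rose (Ern2, Eif2ak3, Atf6 and Xbp1) and none that fell, and 2 of these rose without WT replicate 1. Ern2, on chromosome 7 from 122169893 to 122186239 (mm10), encodes IRE1β. It stood at 4.58 and 10.2 CPM in EYFP cells, 233 and 269 CPM in EGFP cells, and 18.2 and 27.4 CPM in WT cells. All 3 groups were apart, with the EGFP libraries far above the others and the EYFP libraries the lowest. Ern2 was 34.3-fold lower in EYFP over EGFP (log2 fold change -5.10 ± 0.42, adjusted p = 6.3e-04), 10.9-fold higher in EGFP over WT (3.45 ± 0.38, adjusted p = 7.9e-04) and 3.13-fold lower in EYFP over WT (-1.65 ± 0.38, adjusted p = 0.010). Without EYFP replicate 2 the values were -5.78 in EYFP over EGFP and -2.32 in EYFP over WT, and without WT replicate 2 the EYFP over WT difference did not pass (-1.32, adjusted p = 0.058). The goblet markers had the same order of the 3 group means, and their part in the Ern2 level was not tested. The widely expressed paralog Ern1 (IRE1α) did not pass anywhere, with log2 fold changes of -0.18 ± 0.14, 0.32 ± 0.14 and 0.14 ± 0.14.

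Atf6, on chromosome 1 from 170704457 to 170868585 (mm10), encodes the membrane-bound factor that is cut in the Golgi and then acts in the nucleus. It stood at 872 and 487 CPM in EYFP cells, 186 and 180 CPM in EGFP cells, and 78.0 and 79.2 CPM in WT cells. It was the only member with EYFP cells highest among the 28 that passed in EYFP over EGFP, although its EYFP libraries differed from each other. Atf6 was 3.71-fold higher in EYFP over EGFP (1.89 ± 0.27, adjusted p = 0.0019), 2.33-fold higher in EGFP over WT (1.22 ± 0.26, adjusted p = 0.0079) and 8.64-fold higher in EYFP over WT (3.11 ± 0.28, adjusted p = 6.8e-05). Without either WT library in turn, the EGFP over WT difference had adjusted p of 0.050 and 0.054. The enteroendocrine markers followed the same order of groups, and their part in the Atf6 level was not tested. Counts per gene hold no information on the cleavage of ATF6.

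Xbp1 encodes the factor whose transcript IRE1 splices. It stood at 318 and 266 CPM in EYFP cells, 414 and 364 CPM in EGFP cells, and 253 and 234 CPM in WT cells. The groups did not overlap, and the gene rose in EGFP over WT (0.68 ± 0.17, adjusted p = 0.013) and did not pass in EYFP over EGFP (-0.41 ± 0.17, adjusted p = 0.086). The rise had an adjusted p of 0.056 without EGFP replicate 1. Spliced and unspliced Xbp1 are not separated in a count per gene. Eif2ak3, which encodes PERK, had -0.74 ± 0.14 in EYFP over EGFP and 0.57 ± 0.14 in EGFP over WT. Its downstream factor Atf4 stood at 409 and 508 CPM in EYFP cells, 492 and 444 CPM in EGFP cells, and 404 and 392 CPM in WT cells, with no call in any comparison. Both the EYFP and the EGFP libraries exceeded the WT libraries, but neither difference passed (log2 fold changes of 0.20 ± 0.18 in EYFP over WT and 0.23 ± 0.18 in EGFP over WT). Ddit3, which encodes the stress factor CHOP, stood at 33.0 and 71.0 CPM in EYFP cells, 47.3 and 23.0 CPM in EGFP cells, and 52.6 and 34.6 CPM in WT cells. The 3 groups overlapped and the replicates differed more than the group means (0.57 ± 0.50 in EYFP over EGFP, adjusted p = 0.42).

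The 3 ATF4 targets each had their own pattern. Chac1, an enzyme that degrades glutathione, stood at 0.564 and 0.925 CPM in EYFP cells, 19.7 and 2.87 CPM in EGFP cells, and 1.17 and 0.663 CPM in WT cells. One EGFP library carried the difference. Chac1 passed in EYFP over EGFP (-3.90 ± 0.99, adjusted p = 0.025) and in EGFP over WT (3.62 ± 0.96, adjusted p = 0.024), and without EGFP replicate 1 neither did (-1.89, adjusted p = 0.12, and 1.76, adjusted p = 0.11). Without EGFP replicate 2 they were -4.73 and 4.44. Without EYFP replicate 1 or 2 in turn, EYFP over EGFP was -3.57 and -4.28, without a call. Without WT replicate 1 or 2 in turn, EGFP over WT was 4.05 and 3.24, also without a call. With no filter on low counts neither difference passed (edgeR adjusted p = 0.062 and 0.064). In a fit to only the 4 libraries compared, EYFP over EGFP did not pass (edgeR adjusted p = 0.051). Trib3, a pseudokinase, stood at 2.26 and 2.52 CPM in EYFP cells, 3.26 and 2.96 CPM in EGFP cells, and 7.66 and 11.8 CPM in WT cells. The WT libraries were the highest, and Trib3 was 4.08-fold lower in EYFP over WT (-2.03 ± 0.34, adjusted p = 0.0013) and 3.14-fold lower in EGFP over WT (-1.65 ± 0.34, adjusted p = 0.0059). Asns, asparagine synthetase, was lowest in WT cells, and its EYFP and EGFP libraries overlapped. It stood at 109 and 82.9 CPM in EYFP cells, 125 and 94.5 CPM in EGFP cells, and 36.1 and 29.5 CPM in WT cells, a log2 fold change of 1.55 ± 0.21 in EYFP over WT and 1.74 ± 0.21 in EGFP over WT.

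**Figure D3:**
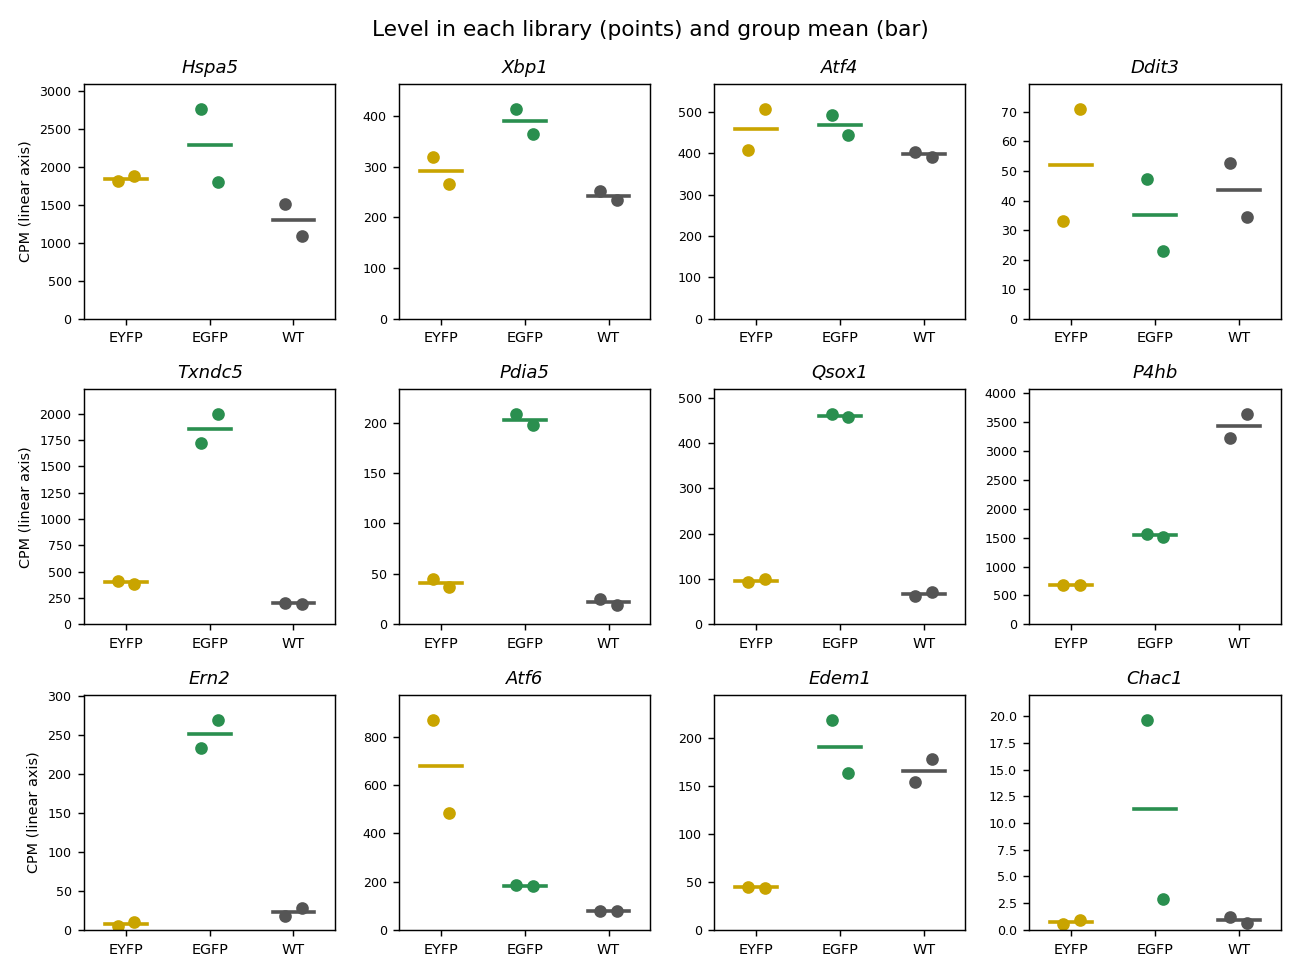
Levels of 12 of the 45 genes in CPM (y axis, linear, from 0) in each library (points) with the mean of the 2 libraries of a group (bar), for EYFP, EGFP and WT cells from left to right. Txndc5, Pdia5, Qsox1 and Ern2 peak in EGFP cells, P4hb in WT cells and Atf6 in EYFP cells, and the Chac1 peak is 1 library at 19.7 CPM.

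Levels of different genes can be compared per length of transcript, here as CPM per kilobase of the gene's median transcript length. In EYFP cells the highest means were those of Hspa5 (706), Calr (538) and Hsp90b1 (420). In EGFP cells they were Hspa5 (873), Calr (740) and Txndc5 (709), where the libraries of all 3 genes overlapped. In WT cells they were P4hb (1198), Hspa5 (497) and Calr (456), where Hspa5 and Calr overlapped. Among the 45, Txndc5 thus ranked 10 in EYFP cells, 3 in EGFP cells and 18 in WT cells. P4hb ranked 6 in EYFP cells, 6 in EGFP cells and 1 in WT cells. Atf6 ranked 17 in EYFP cells, 37 in EGFP cells and 39 in WT cells.

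**Figure D4:**
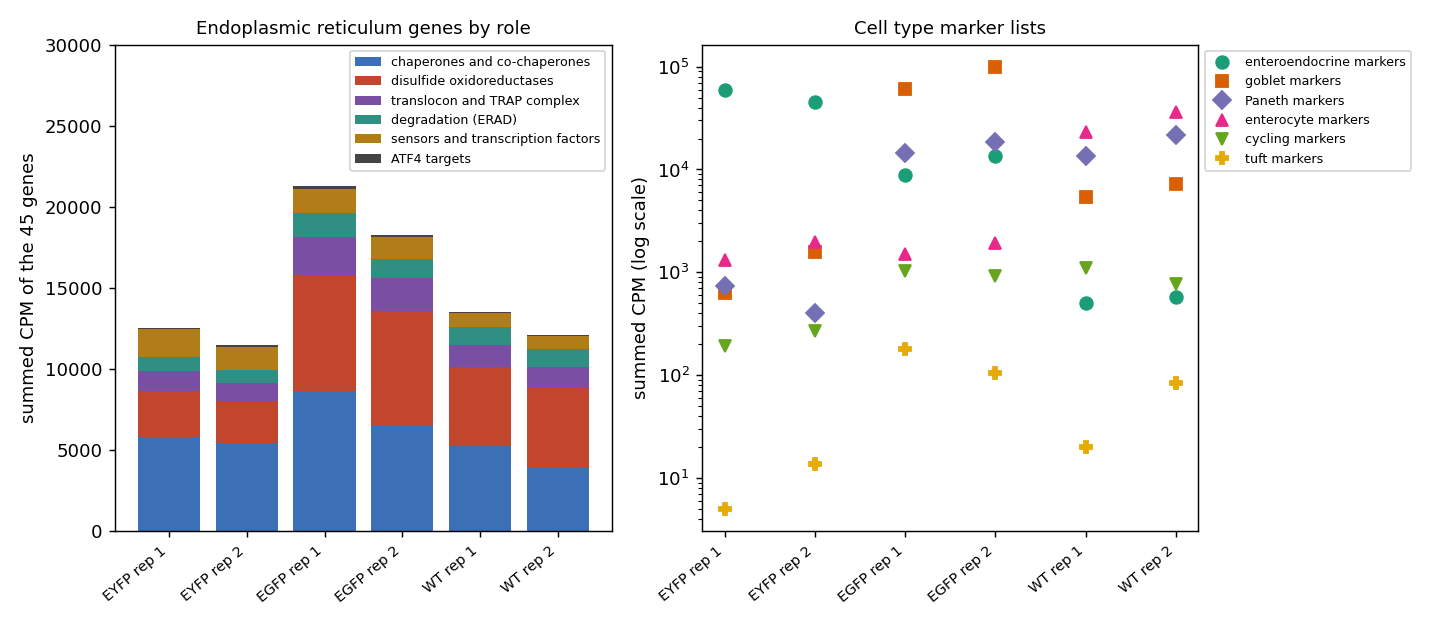
Left, summed CPM of the 45 genes by role in each library, stacked from 0. Right, summed CPM of 6 lists of cell type markers in the same libraries, on a log scale. The members' sums are highest in the 2 EGFP libraries, at 21265 and 18249 CPM, as are the goblet markers, while the enteroendocrine markers are highest in the EYFP libraries.

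Members with and without an ERSE are given side by side. Of the 9, 3 fell in EYFP over EGFP (Dnajc3, Pdia6 and Syvn1), with a median of -0.69, while 19 of the 29 members with a window and no ERSE fell, with a median of -0.85. Against WT cells, 6 of the 9 rose in EGFP cells, with a median of 0.81, and 18 of the 29, with a median of 0.68. In EYFP cells against WT cells 2 of the 9 rose, with a median of 0.48, and 6 of the 29 rose and 3 fell, with a median of -0.06. Among the 7 members with no window, which include Ern2 and Atf6, 5 fell and 1 rose in EYFP over EGFP. Over all genes tested, 19.4% fell and 16.8% rose in EYFP over EGFP, and 19.6% rose in EGFP over WT. In EYFP over WT, 27.1% of all genes rose and 33.5% fell, and the counts of the 9 and the 29 did not exceed these shares. The counts by ERSE are descriptions and were not tested against each other.

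Other genes of the same route were taken from companion lists and are given for EYFP over EGFP first, where 19.4% of all genes fell and 16.8% rose. The lists were not tested against each other. Of 12 oligosaccharyltransferase genes, which attach N-glycans, 11 fell and 1 rose (median -0.77). The one that rose was Tusc3, a subunit with an oxidoreductase fold, at 134 and 116 CPM in EYFP cells, 39.7 and 52.3 CPM in EGFP cells, and 11.2 and 12.5 CPM in WT cells. This was the group order of Atf6 (1.44 ± 0.17 in EYFP over EGFP, adjusted p = 0.0010). Of 15 genes for signal peptides and their recognition, 7 fell and none rose (median -0.51), led by the signal peptidase subunit Sec11c (-2.22 ± 0.18). Of 19 other folding enzymes, 10 fell and 1 rose (median -0.55). The most changed was Agr2, an isomerase needed for mucin production, at 69.9 and 252 CPM in EYFP cells, 3975 and 3593 CPM in EGFP cells, and 188 and 208 CPM in WT cells (-4.55 ± 0.63, adjusted p = 0.0030). Its EGFP libraries were far above the other 4, as for Ern2. Of 18 genes of COPII vesicles and ER to Golgi traffic, 10 fell and 1 rose (median -0.58), led by Kdelr3, a receptor that returns ER residents (-4.32 ± 0.40). Of 15 other ERAD genes, 2 fell and none rose (median -0.13), with Vimp (Selenos) at -2.53 ± 0.17.

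Among 13 other stress transducers and factors, 4 fell and none rose in EYFP over EGFP (median -0.08). The most changed was Creb3l4, a membrane-bound factor of the ATF6 kind, at 2.75 and 3.11 CPM in EYFP cells, 86.8 and 98.6 CPM in EGFP cells, and 8.99 and 10.4 CPM in WT cells (-4.98 ± 0.20, adjusted p = 7.0e-05). Of 19 other targets of ATF4 and CHOP, 7 fell and 4 rose (median -0.20). The 4 were Ppp1r15a, which reverses PERK signalling, Sesn2, Ddit4 and the tRNA synthetase gene Gars, with log2 fold changes between 1.06 and 1.36. The most changed was the stress-induced regulator Nupr1, which fell by 5.52 ± 0.33 on the log2 scale. Set against WT cells, where 19.6% of all genes were higher and 21.9% lower, EGFP cells had 7 of 12 oligosaccharyltransferase genes, 7 of 15 signal peptide genes and 8 of 19 other folding enzymes higher and none lower, and 10 of 19 ATF4 and CHOP targets higher and 2 lower. There, 5 of the 18 COPII and ER to Golgi genes rose and 9 fell (median -0.35), and in EYFP over WT, where 33.5% of all genes fell, none rose and 11 fell.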

How the data were processed

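The authors' deposited values are estimated counts, fractional in part since a read can be shared among genes. Their deposited table of comparisons holds a linear fold (ratio) and an adjusted p-value per gene, quoted once as deposited. The submitters' processing notes name the mm10 build, Bowtie2 and RSEM 1.3.1, and also DESeq2 1.26.0 and FastQC 0.11.8. Per the labels' protocols, RNA was extracted with RNeasy Micro and TruSeq libraries were read as 50-base single ends on a HiSeq2000. The strand setting is not given in the sources used here. Exons of 13 members overlap a gene on the other strand.

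Estimated counts were rounded, filtered with filterByExpr (13935 genes kept, 58.4%), scaled by TMM, and tested in R 4.3.3 with edgeR 4.0.16 (robust quasi-likelihood F test, 3 group means over 6 libraries, 3 residual degrees of freedom, Benjamini-Hochberg adjustment over all genes tested, threshold 0.05). Genes varied between replicates by 19.8% (biological coefficient of variation). Each SE comes from the F value. The steps were tested on simulated data. Columns of the EYFP libraries carry EGFP with the word addon and were matched by title. Alternatives are in the closing section. The members, lists, motifs and named genes were chosen with earlier results of these data known. Values in every library are given for Hspa5, Xbp1, Atf4, Ddit3 and, per role, the most changed genes past the test (2 in EYFP over EGFP, 1 in each other comparison). Of each companion list the most changed gene past the test in EYFP over EGFP is named. Asns and the 4 ATF4 and CHOP targets that rose were named after their values were seen. Sequences and coordinates are RefSeq's for GRCm38.p6, the assembly of mm10.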

Additional observations from a re-analysis of the deposited data

How the results depend on the processing

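Other settings were the DESeq2 Wald test, DESeq2 size factors, a fit to 4 libraries at a time, the replicate block, scaling that leaves out the top 50 genes, and filters on low counts (none, or at least 10 in each library of 1 group). Under these the members' counts stayed within 1.5 times the values given. No member's call changed direction under any alternative. Leaving out 1 library at a time moved the members lower in EYFP over EGFP between 10 and 28 and those higher in EGFP over WT between 18 and 28. Members lower in EGFP over WT ranged from 1 (without EGFP replicate 1) to 3. Over all genes, the ranges were 1138 to 2525 higher and 1254 to 2958 lower in EYFP over EGFP, and 1820 to 3019 lower in EGFP over WT. The lone library of a group was taken to vary as the rest do. Calls of 11 of 28 members in EYFP over EGFP, 17 of 33 in EGFP over WT and 9 of 14 in EYFP over WT held under every alternative. In EYFP over WT, DESeq2 size factors moved the median of all genes by 0.11, and a fit to only the 4 libraries compared moved it by 0.16. With the replicate number as a block, 30 members were lower in EYFP over EGFP, 31 higher in EGFP over WT and 10 higher in EYFP over WT. The share of all genes called with this block is not given here, so these counts describe the setting and not the members. Hyou1, Creld2 and Xbp1 passed in EYFP over EGFP with this block and not in the main fit. Nothing states whether same-numbered libraries belong together. Their deviations correlated by 0.02, 0.10 and 0.01 over all genes for the 3 pairs of groups, which cannot exclude an effect shared by some genes. For Sdf2l1, Creld2 and Manf the library numbered 1 was the higher in every group, while Qsox1 and Edem2 were mixed. A shared replicate effect on the members was not tested. Depth limits Derl3, Chac1 and Trib3, which stood at a few CPM in at least 1 group.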
